A study of Homo sapiens with 12 samples.

Results

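Plasmax, a culture medium whose nutrients and trace elements follow human blood plasma, was set against EMEM, Eagle's minimum essential medium, in 6 of the 12 RNA libraries of the series. The 6 were chosen by their labels as the 3 EMEM and the 3 Plasmax libraries, and all 10940 genes of the deposited count table were described in them. The cells were wild-type HepG2, an established line grown from a human liver cancer, so every library comes from 1 cell line and none carries an engineered change. Cells were seeded in EMEM and changed after 24 h to fresh EMEM (the control) or to Plasmax, each with 10% heat-inactivated fetal bovine serum. The medium was renewed at 48 h and RNA was taken 96 h after the change. The other 6 libraries are Plasmax without its trace elements (Plasmax-TE) and that medium with iron added (Plasmax-TE+Fe), 3 of each, which had the same serum and the same times.

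Hepatocytes keep their identity through a set of liver-enriched transcription factors (the FOXA, CEBP and ONECUT families) and nuclear receptors, which are transcription factors switched by lipids, bile acids, steroids and drugs. Their targets make plasma proteins, detoxifying enzymes, and the transporters that move sugars, amino acids, bile acids and metals. Growth factors and integrins act on epithelial cells through the ERK kinase cascade, whose end points include the AP-1 transcription factors. Keratins, tubulins and actins build the cytoskeleton.

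Total counts of the 6 libraries ran from 1562125 to 2384090, so that 1 count was worth 0.419 to 0.640 CPM, the count scaled to a common library total. CPM below are scaled by the trimmed mean method of edgeR and, where 3 values are given, are those of replicates 1, 2 and 3. A mean CPM carries the SD over 3 libraries and a log2 fold change its SE. CPM count 3′ ends of transcripts and are not divided by length. Library correlations over genes were 0.972 to 0.976 within EMEM, 0.955 to 0.975 within Plasmax and 0.914 to 0.926 between the media. The first principal component, with 58.4% of the variance, parted the media, with EMEM at -34.6 to -29.2 and Plasmax at 30.8 to 34.5. The second component, with 16.6%, set Plasmax replicate 3 (-33.8) apart from Plasmax replicates 1 (22.9) and 2 (10.1), while EMEM stayed between -3.2 and 2. Whether replicate libraries are separate cultures is not stated in the labels. The p-values therefore rest on differences among library preparations, which may be technical. TXNIP, for an alpha-arrestin that limits glucose entry, had 5.78, 7.67 and 8.03 CPM in EMEM and 601, 438 and 382 CPM in Plasmax. ALB, for albumin, had 17170, 17710 and 20340 CPM in EMEM and 4155, 3885 and 3989 CPM in Plasmax, and AFP, for alpha-fetoprotein, 5394, 5037 and 6829 and 914, 779 and 772 CPM, so the libraries of the media did not overlap for any of these 3 genes.

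Of 10459 genes tested, 2233 (21.4%) were called different at a Benjamini-Hochberg adjusted p under 0.05 in edgeR's quasi-likelihood test, 1035 (9.9%) higher and 1198 (11.5%) lower in Plasmax. Called genes that rose did so by a median of 0.82 on the log2 scale, and those that fell had a median of -0.96, against -0.01 over all genes tested. A 2-fold change was reached by 916 called genes (8.76% of those tested), 363 higher and 553 lower. Larger changes were tilted the other way, with 94 genes higher and 82 lower by at least 4-fold, and 32 higher and 16 lower by at least 8-fold. The libraries of the media did not overlap for 2181 of the called genes and overlapped for 52, and 39.6% of all genes tested did not overlap. Without Plasmax replicate 3, the library that stands apart, 1996 genes were called (898 higher, 1098 lower). Leaving out EMEM replicate 3 lowered the number called higher to 631, and leaving out Plasmax replicate 2 lowered the number called lower to 764.

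Abundant genes were called more often, and the changes of those called were smaller. In the band under 5 CPM (mean of 12 libraries) 17.9% of 525 genes were called, all of them by at least 2-fold, 52 higher and 42 lower. The count filter keeps a gene for its highest libraries, so a weak gene could enter this band through a medium where it is higher. The share called and the fold changes of this band may be raised by that, which was not tested. Between 5 and 20 CPM 14.2% of 3468 genes were called, and between 20 and 100 CPM 22.7% of 4567. The share was 31.6% of 1645 genes between 100 and 500 CPM and 36.2% of 254 genes above 500 CPM. Genes called higher had a median log2 fold change of 2.48 in the lowest band and 0.64 in the highest, and genes called lower -1.91 and -0.7. Small changes of genes with few counts were not detectable at this depth. The medians of called genes therefore depend on the test, and do not show that abundant genes at large moved less. Sorted by the mean of the 6 libraries alone, the share in the lowest band was 12.9%, and in the other bands it lay between 14.7% and 36.5%.

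**Figure D1:**
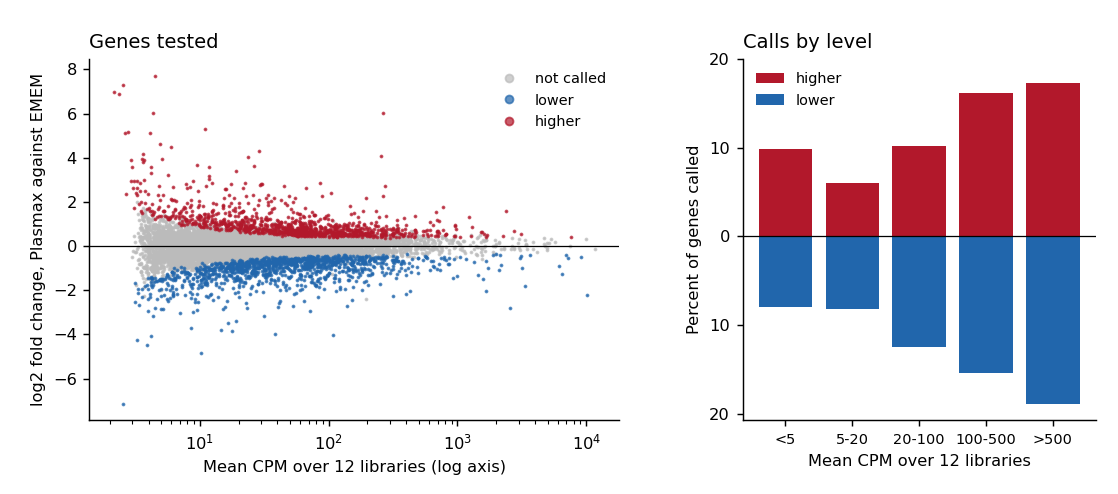
Left, the log2 fold change of each tested gene between Plasmax and EMEM against its mean CPM over 12 libraries (log axis), with genes called higher in red, lower in blue and not called in grey. Right, the percent of genes called higher (up) and lower (down) in 5 bands of mean CPM; the bars grow from the band of 5 to 20 CPM to the band above 500 CPM, where 17.3% were higher and 18.9% lower.

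Seen as shares of all counts, the genes called higher took 9.82% ± 0.22 (SD, n = 3) of the EMEM libraries and 17.1% ± 0.41 of the Plasmax libraries. The genes called lower took 24.7% ± 0.522 and 13.4% ± 0.447. These genes were chosen by the same contrast, so their shares are a description. In bulk RNA fewer cells of a type and less RNA per cell cannot be told apart. The 17 hepatocyte markers together held 6.11%, 5.61% and 6.07% of counts in EMEM and 2.59%, 2.26% and 2.56% in Plasmax, without overlap (exact permutation test, two-sided, p = 0.1, the smallest that 3 against 3 allows). The 78 cytosolic ribosomal protein genes held 15.9% ± 0.348 and 16.1% ± 1.41 (exact p = 0.9). Among the 15 most abundant genes, FN1, for fibronectin, had 13450, 12400 and 13370 CPM in EMEM and 12030, 11020 and 12560 CPM in Plasmax and was not called (log2 fold change -0.14 ± 0.11). AHSG, for the plasma protein fetuin-A, fell from 11930, 8877 and 10530 CPM to 4303, 3286 and 5544 CPM, a log2 fold change of -1.26 ± 0.16. APOA2, an apolipoprotein of high-density lipoprotein, fell by 0.89 ± 0.12, from 9085 ± 707 CPM (EMEM) to 4911 ± 61.0 CPM (Plasmax).

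Genes were sorted into classes by families of related symbols, and each class was read against the 9.9% of all genes called higher and the 11.5% called lower. The enzyme class held the detoxification, steroid and lipid families, carbonic anhydrases, phosphodiesterases and adenylyl cyclases. It also held sialyl-, fucosyl- and GalNAc transferases, TRIM ubiquitin ligases, and disulfide isomerases with prolyl hydroxylases. Enzymes had 8 higher and 53 lower of 157 tested, with a median log2 fold change of -0.35. Cell structure genes (keratins, tubulins, actins and myosins, annexins, laminins, claudins and tetraspanins) had 24 higher and 5 lower of 107, with a median of 0.23. Transporters and channels had 21 higher and 47 lower of 268 (median -0.16). Receptors had 30 higher and 31 lower of 157 (median -0.01), ligands 15 higher and 25 lower of 89 (median -0.12), and proteases with their inhibitors 12 higher and 14 lower of 51 (median -0.12). Transcription factors had 45 higher and 63 lower of 609, and 30 higher and 48 lower of the 321 not named ZNF, ZFP or ZSCAN. Some of these counts hung on 1 library. Receptors called higher were 18 without EMEM replicate 2 or without EMEM replicate 3, and transporters and channels called higher were 12 without EMEM replicate 3. Transcription factors called lower were 41 without EMEM replicate 1 and 34 without Plasmax replicate 2, and enzymes called higher were 5 without EMEM replicate 1. Structure genes called lower were 2 without EMEM replicate 1, 1 without EMEM replicate 2, and 3 without Plasmax replicate 1 or without Plasmax replicate 2.

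**Figure D2:**
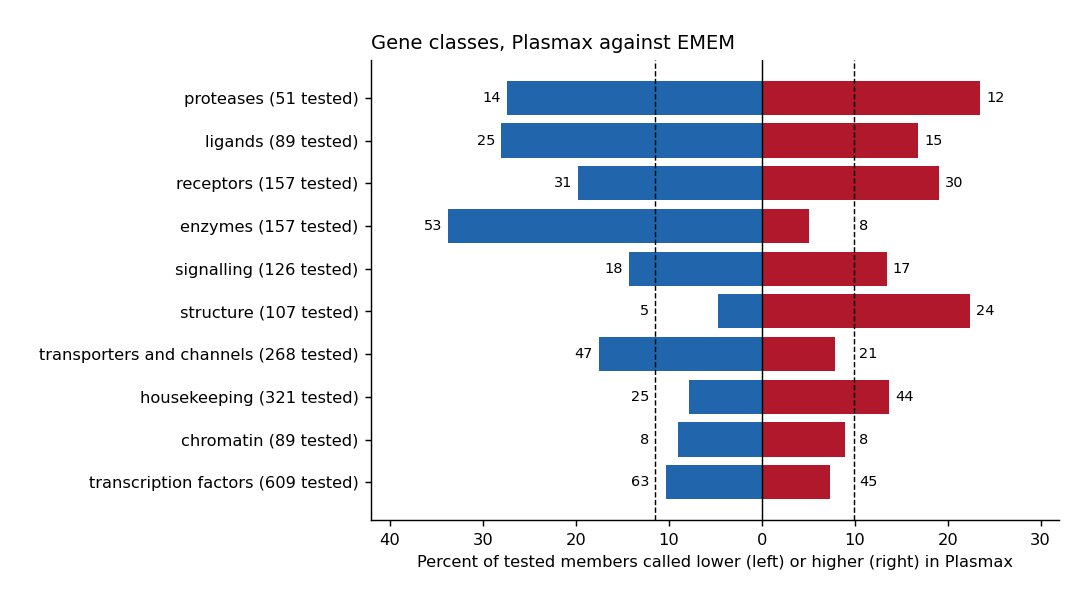
Percent of the tested members of 10 gene classes called higher (red, right) or lower (blue, left) in Plasmax, with the number of genes beside each bar and dashed lines at 9.9% higher and 11.5% lower, the shares over all genes tested. Enzymes (53 lower, 8 higher) and structure genes (24 higher, 5 lower) are tilted in opposite directions.

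Of 25 nuclear receptors tested 10 fell, 0 rose and 15 were not called in Plasmax, with a median log2 fold change of -0.45. The count lower was 9 or 10 whichever of the 6 libraries was left out. NR0B2 (ENSG00000131910), which encodes SHP, a corepressor that curbs bile acid synthesis, had 209.9, 187 and 257 CPM in EMEM and 55.8, 55.6 and 59.1 CPM in Plasmax. All 3 Plasmax libraries lay below the lowest EMEM library, and the log2 fold change was -1.94 ± 0.20 (edgeR's quasi-likelihood test, adjusted p = 1.3e-06). NR1H4 (ENSG00000012504), the bile acid receptor FXR, went from 59.0, 50.3 and 58.1 to 19.4, 19.5 and 22.8 CPM, a change of -1.43 ± 0.21 (adjusted p = 6.4e-05). Its libraries did not overlap between media either. PPARA, the fatty acid sensor that drives fatty acid oxidation, had 41.1, 66.9 and 52.9 CPM in EMEM and 27.0, 28.04 and 27.0 CPM in Plasmax (-0.98 ± 0.20, adjusted p = 0.0013). The Plasmax libraries of PPARA were nearly equal, while those of EMEM spread by over 20 CPM.

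PPARG, a receptor of fat storage, fell by 1.78 ± 0.41, and Plasmax replicate 3 was the lowest library (8.78, 6.01 and 0.931 CPM in Plasmax, 18.6, 18.3 and 14.6 CPM in EMEM). NR1H3, the oxysterol receptor LXR-alpha, fell by 1.15 ± 0.27 and RXRA, the common partner of these receptors, by 0.67 ± 0.15. RORA, an activator in the circadian clock, fell by 1.25 ± 0.33 and NR2F2 (COUP-TFII) by 0.89 ± 0.19. NR2F1 (COUP-TFI) fell by 0.62 ± 0.15, a call lost without Plasmax replicate 2 (adjusted p = 0.063). NR4A1, an immediate early gene, went from 9.69 ± 3.47 CPM (EMEM) to 3.52 ± 2.81 CPM (Plasmax), but its call was lost without any 1 library other than Plasmax replicate 2, with adjusted p from 0.057 to 0.21, and with library size alone (adjusted p = 0.06). Several receptors did not pass the test. HNF4A, the main nuclear receptor of hepatocyte identity, had 189, 158 and 187 and 132, 118 and 166 CPM (log2 fold change -0.35 ± 0.16, adjusted p = 0.11). For the glucocorticoid receptor NR3C1 the log2 fold change was -0.45 ± 0.17 (adjusted p = 0.062). For PPARD it was 0.46 ± 0.25, and for NR1H2, the oxysterol receptor LXR-beta, 0.35 ± 0.27.

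Of the liver-enriched transcription factors 9 of 20 tested fell and 0 rose, with a median of -0.59. Some members are also nuclear receptors. With 1 library left out the count lower was 8 to 10. CEBPA (ENSG00000245848), which holds hepatocytes out of division and drives metabolic genes, had 181, 134 and 154 CPM in EMEM and 36.4, 50.6 and 75.4 CPM in Plasmax, a change of -1.51 ± 0.32 (adjusted p = 0.0021). The pioneer factor FOXA1 went from 55.8, 58.4 and 80.8 to 31.4, 29.5 and 14.9 CPM (-1.39 ± 0.28), and FOXA3 fell by 0.93 ± 0.18. In both genes the lowest EMEM library stood above the highest Plasmax library. CREB3L3, a membrane-bound factor of fasting metabolism, fell by 1.45 ± 0.29, ONECUT2 by 0.96 ± 0.17 and the homeobox factor HHEX by 0.79 ± 0.17. Members that were not called included FOXA2 (-0.40 ± 0.15, adjusted p = 0.064), PROX1 (-0.10 ± 0.18) and TBX3 (-0.04 ± 0.15).

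**Figure D3:**
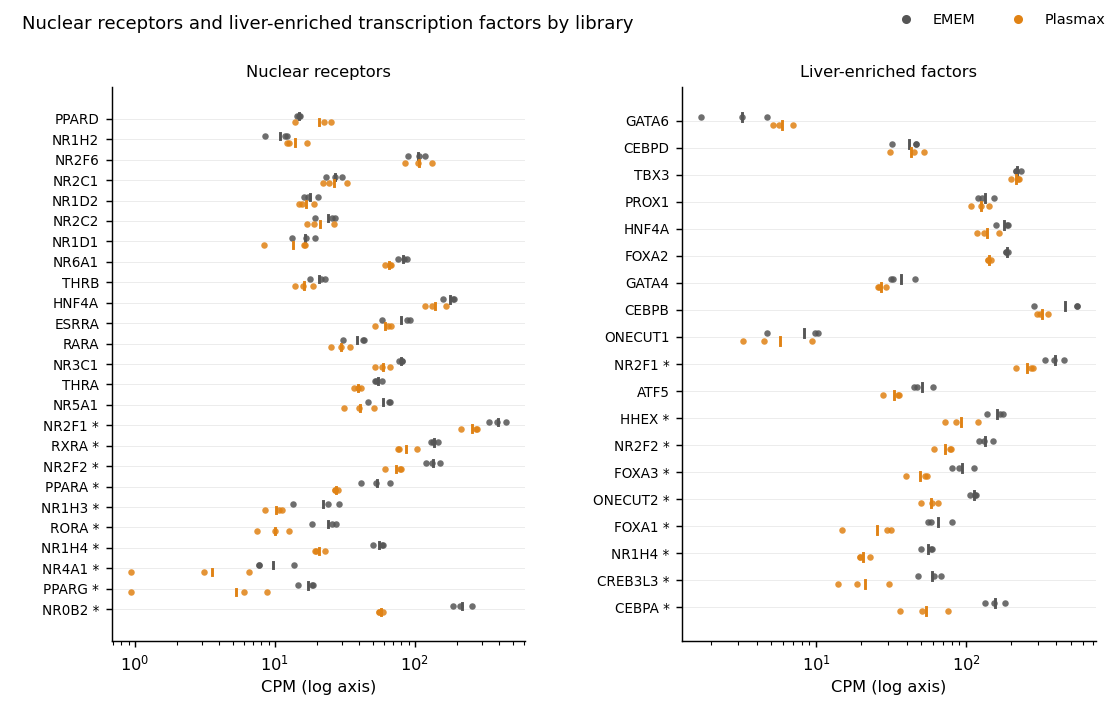
CPM of each library (points, log axis) and the mean of each medium (short bars) for the tested nuclear receptors (left) and for tested liver-enriched transcription factors, 1 left out (right), EMEM in grey and Plasmax in orange, in order of log2 fold change, with called genes starred. The starred genes, from NR2F1 to NR0B2 and from NR2F1 to CEBPA, all lie lower in Plasmax.

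Single members of other transcription factor families also fell. KLF15 (ENSG00000163884), a factor of amino acid breakdown and glucose production, had 29.5, 15.8 and 31.2 CPM in EMEM and 6.90, 4.01 and 3.26 CPM in Plasmax, a change of -2.45 ± 0.40 (adjusted p = 0.00018). SREBF2, the master switch of cholesterol synthesis, fell by 0.94 ± 0.18, and MXD4, which opposes MYC, by 1.36 ± 0.18, from 121 ± 8.01 CPM (EMEM) to 47.0 ± 6.84 CPM (Plasmax). SP5, a target and repressor in the Wnt pathway, fell from 523 ± 75.1 CPM (EMEM) to 232 ± 94.4 CPM (Plasmax). USF3 fell by 1.00 ± 0.23 and the calcium-responsive factor NFATC3 by 0.93 ± 0.16. HLF, a clock-output factor, fell by 0.63 ± 0.14, and IRX3 by 0.90 ± 0.19.

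Other transcription factors rose, some of them from the families of genes that fell. SOX4 (ENSG00000124766), a factor of progenitor and tumour cells, had 71.2, 98.4 and 72.3 CPM in EMEM and 357, 414 and 339.8 CPM in Plasmax, a change of 2.19 ± 0.18 (adjusted p = 8.9e-08). The media were far apart for SOX4 and its libraries tight within each. CREB5, a partner of AP-1 factors, went from 2.57, 2.56 and 3.78 to 15.7, 19.5 and 21.9 CPM (2.66 ± 0.34, adjusted p = 1.3e-05). FOXC1, a mesenchymal forkhead factor, had 15.4, 14.5 and 10.9 CPM in EMEM and 55.2, 47.6 and 44.2 CPM in Plasmax (1.85 ± 0.26), and was the 1 forkhead gene of 18 tested called higher, against 6 lower. FOSL1, the AP-1 subunit FRA-1, rose by 1.52 ± 0.33, from 6.99 ± 0.149 CPM (EMEM) to 19.9 ± 5.40 CPM (Plasmax). Of 10 AP-1 and small Maf factors tested FOSL1 was the 1 called higher, and 2, JUND and MAFK, were called lower (median 0.06). With 1 library left out 0 to 2 of them were lower.

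Of 19 genes of the EGR and ETS factors and SRF cofactors, which act below growth factor signals, 4 rose and 1 fell. ETS1, a factor of invasive and activated cells, had 0 counts in every EMEM library and 42 counts over the 3 Plasmax libraries, which is at least 14.7-fold higher when set against 3 counts over the EMEM group. ELK3 rose by 1.61 ± 0.32 and ETV6 by 1.25 ± 0.22, while ERF, an ETS repressor that ERK inactivates, fell by 0.66 ± 0.16. NFE2L3, a relative of the antioxidant factor NRF2, rose by 2.16 ± 0.36, RUNX1 by 1.44 ± 0.30 and ZBTB20 by 1.67 ± 0.25. KLF10, a TGF-beta-induced factor and target of the glucose sensor ChREBP, went from 13.9 ± 2.395 CPM (EMEM) to 45.5 ± 13.2 CPM (Plasmax). Smaller rises were those of E2F3 (0.85 ± 0.20), STAT3 (0.60 ± 0.14), TCF7 (0.71 ± 0.18) and CUX1 (0.81 ± 0.19). The large family of zinc finger genes named ZNF, ZFP or ZSCAN had 15 higher and 15 lower of 288 (median -0.01), a share called of 10.4% beside the 21.4% of all genes. Those counts were 11 and 7 without EMEM replicate 1, 9 and 10 without EMEM replicate 2, 10 and 7 without EMEM replicate 3, and 12 and 4 without Plasmax replicate 2.

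Promoters of genes that rose and fell are shown to set the letters of the AP-1 motif and of the E-box beside the values. The sequences are from RefSeq (build GRCh38.p14) and run over the 250 bases before the start site, on the strand of the gene. Searched on both strands were TGANTCA, a loose form of the AP-1 motif with any middle letter, and CACGTG. The latter is an E-box bound by factors of the bHLH family such as MAX and USF. The 2 motifs share no letters by overlap, and each reads the same on both strands apart from N. TGANTCA stands in 6.57% and CACGTG in 6.34% of the 35116 promoters of this length in the table. Capitals mark the matches. The first 4 genes rose and the last 2 fell in Plasmax.
IL11: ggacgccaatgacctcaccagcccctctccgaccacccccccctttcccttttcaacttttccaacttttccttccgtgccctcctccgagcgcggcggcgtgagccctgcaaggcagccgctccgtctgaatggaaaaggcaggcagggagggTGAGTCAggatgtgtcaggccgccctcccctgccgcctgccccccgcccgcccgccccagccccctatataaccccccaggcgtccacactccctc
EMP1: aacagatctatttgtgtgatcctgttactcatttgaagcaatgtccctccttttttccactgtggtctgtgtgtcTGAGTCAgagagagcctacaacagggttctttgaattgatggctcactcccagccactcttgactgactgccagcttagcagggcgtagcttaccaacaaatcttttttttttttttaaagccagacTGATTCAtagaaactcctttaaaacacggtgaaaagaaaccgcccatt
LAMB3: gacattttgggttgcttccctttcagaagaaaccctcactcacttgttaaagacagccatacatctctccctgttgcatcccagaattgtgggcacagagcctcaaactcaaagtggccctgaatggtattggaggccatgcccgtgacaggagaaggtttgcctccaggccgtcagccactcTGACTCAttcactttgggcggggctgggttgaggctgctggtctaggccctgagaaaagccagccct
RAB3B: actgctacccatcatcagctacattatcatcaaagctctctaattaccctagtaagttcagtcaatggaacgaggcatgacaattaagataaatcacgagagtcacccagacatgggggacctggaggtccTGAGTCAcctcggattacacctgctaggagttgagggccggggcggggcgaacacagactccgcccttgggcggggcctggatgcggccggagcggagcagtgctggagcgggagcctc
KLF15: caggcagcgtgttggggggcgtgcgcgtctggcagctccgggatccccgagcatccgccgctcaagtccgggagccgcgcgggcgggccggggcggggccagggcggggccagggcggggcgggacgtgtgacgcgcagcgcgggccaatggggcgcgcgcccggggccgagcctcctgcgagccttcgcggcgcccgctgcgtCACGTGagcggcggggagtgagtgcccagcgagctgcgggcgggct
MXD4: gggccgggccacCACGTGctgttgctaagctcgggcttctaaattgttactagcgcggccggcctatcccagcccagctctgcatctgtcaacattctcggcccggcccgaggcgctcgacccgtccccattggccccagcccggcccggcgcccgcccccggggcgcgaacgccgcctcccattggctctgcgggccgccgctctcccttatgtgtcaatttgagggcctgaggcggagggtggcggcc
The windows are chr19:55370464-55370713 (- strand) for IL11, chr12:13196476-13196725 (+ strand) for EMP1, chr1:209651375-209651624 (- strand) for LAMB3, chr1:51990701-51990950 (- strand) for RAB3B, chr3:126357409-126357658 (- strand) for KLF15 and chr4:2262110-2262359 (- strand) for MXD4. LAMB3 has 3 start sites in the table, and the window that holds a match is shown. The AP-1 letters begin 96 bases before the start in IL11, 175 and 48 in EMP1, 67 in LAMB3 and 119 in RAB3B. The match at 48 in EMP1 has T as its middle letter, and the others shown have G or C. The E-box begins 46 bases before the start in KLF15 and 238 in MXD4. These genes were picked after the matches were known, from the named genes with a 2-fold change. Each motif also stands in such genes that moved the other way. AP-1 letters stand in 13 of 67 that rose and 6 of 118 that fell, the E-box in 7 and 16 of them. These counts are of genes, some with several promoters, while the percents above are of promoters. A tie between motif and direction was not tested. A match is a run of letters, and binding was not measured.

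Receptors were called in both directions and more often than genes at large (38.9% of 157). GPRC5A, a retinoic acid-induced orphan receptor, had 2.57, 5.11 and 0.945 CPM in EMEM and 23.2, 28.04 and 19.6 CPM in Plasmax, a change of 2.97 ± 0.47 (adjusted p = 0.00015). F2RL1, the protease-activated receptor PAR2, went from 14.1, 7.67 and 10.9 to 43.3, 61.6 and 20.02 CPM (1.96 ± 0.34). For both genes every Plasmax library stood above every EMEM library. The adhesion receptor ADGRG1 rose by 1.59 ± 0.26, and FZD4, a Wnt receptor, fell by 1.57 ± 0.17, from 125 ± 9.18 CPM (EMEM) to 42.0 ± 4.76 CPM (Plasmax). GPR146, a liver receptor tied to cholesterol, fell by 2.51 ± 0.54, and GPRC5C by 1.01 ± 0.16. In all, 7 G protein-coupled receptors rose and 9 fell of 35 tested (4 rose without EMEM replicate 2).

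PDGFRB (ENSG00000113721), the platelet-derived growth factor receptor of stromal cells, fell from 15.4, 17.04 and 23.6 CPM to 2.51, 2.50 and 1.86 CPM, a change of -3.02 ± 0.45 (adjusted p = 7.1e-05). PRLR, the prolactin receptor, fell from 17.3, 14.9 and 15.6 to 2.51, 2.00 and 1.40 CPM (-3.0 ± 0.44). Both were near the level of a few counts in Plasmax. ERBB3, a partner of the EGF receptor, fell by 0.73 ± 0.15, and TIE1 had 5 counts over the EMEM libraries and 39 over the Plasmax libraries, a ratio of 8.18 (95% interval 3.22 to 26.6, counting error only). Among cytokine receptors IL1RAP and IL17RB fell by 1.75 ± 0.42 and 1.08 ± 0.19. NGFR, the p75 neurotrophin receptor, rose by 1.87 ± 0.31, EDA2R by 1.20 ± 0.29 and the death receptor TNFRSF21 by 0.76 ± 0.15, among 5 members of the TNF receptor family called higher and 0 lower of 15. That count was 3 when any 1 EMEM library, or Plasmax replicate 1 or 2, was left out.

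Of 24 receptors by which the liver takes up proteins and lipids 8 fell, 1 rose and 15 were not called (median -0.39). Without Plasmax replicate 3 these counts were 8 and 3. ASGR1, the asialoglycoprotein receptor of hepatocytes, had 592, 566 and 528 CPM in EMEM and 279, 284 and 274 CPM in Plasmax, a change of -1.01 ± 0.13 (adjusted p = 1.2e-05). TFR2, which senses iron-loaded transferrin, fell by 1.41 ± 0.22, FCGRT, the receptor that recycles albumin and antibodies, by 1.00 ± 0.16, and SCARA3 by 1.87 ± 0.29. In semaphorin and Notch receptors NRP1 (neuropilin-1) rose by 1.22 ± 0.22 and PLXNB2 fell by 0.71 ± 0.15. PTPRH, a receptor-type phosphatase, fell by 1.6 ± 0.22, and RGMB, a coreceptor of bone morphogenetic proteins, rose by 1.49 ± 0.27.

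Integrins, the receptors that tie cells to matrix, had 5 higher and 2 lower of 10 tested (median 0.8), and 5 were higher and 1 or 2 lower whichever library was left out. ITGA2, a collagen receptor subunit, had 84.7, 86.5 and 65.7 CPM in EMEM and 233, 181 and 127 CPM in Plasmax, a change of 1.19 ± 0.25 (adjusted p = 0.0019). ITGA1, also of a collagen receptor, went from 66.8, 50.3 and 44.9 to 172, 128 and 111 CPM (1.35 ± 0.19), and the shared subunit ITGB1 from 59.0, 63.0 and 40.6 to 146, 120.2 and 97.3 CPM (1.15 ± 0.23). In each of these genes the Plasmax libraries stood above the EMEM libraries, with Plasmax replicate 3 the lowest of the 3. ITGA6, of laminin receptors, rose by 1.02 ± 0.17. ITGA3 had 2 counts over the EMEM and 35 over the Plasmax libraries, a ratio of 18.4 (95% interval 4.72 to 158.0). ITGB4, the hemidesmosome partner of ITGA6, fell by 1.29 ± 0.27, and ITGB2, of leukocyte integrins, by 0.81 ± 0.20. ITGAV and ITGB5 had log2 fold changes of 0.58 ± 0.21 and 0.35 ± 0.15 and did not pass the test.

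Ligands were called in 44.9% of 89 cases. IL11 (ENSG00000095752), a cytokine of the IL-6 family, had 5.78, 13.2 and 8.97 CPM in EMEM and 64.6, 91.1 and 51.2 CPM in Plasmax, a change of 2.83 ± 0.32 (adjusted p = 2.8e-06). IGFBP4, which binds insulin-like growth factors, went from 21.8, 40.9 and 29.3 to 126, 179 and 147 CPM (2.27 ± 0.22). The libraries of the media were well apart for both. IGFBP1, the insulin-repressed binding protein of the liver, moved the other way, from 5992, 4084 and 5166 to 2371, 1024 and 946 CPM (-1.81 ± 0.25, adjusted p = 3.6e-05). The neuropeptide genes VGF and UCN rose by 2.73 ± 0.50 and 2.32 ± 0.45, PDGFA by 1.87 ± 0.34 and the Notch ligand JAG1 by 0.77 ± 0.19. SPP1, for osteopontin, rose from 115 ± 29.8 CPM (EMEM) to 351 ± 31.1 CPM (Plasmax), and FGL1, a liver-secreted protein, by 0.95 ± 0.14.

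CCL20 (ENSG00000115009), the chemokine for CCR6-bearing cells, had 409.5, 232 and 391 CPM in EMEM and 92.2, 58.1 and 11.6 CPM in Plasmax, a change of -2.7 ± 0.39 (adjusted p = 5.1e-05). EDN1, the vasoconstrictor endothelin-1, fell from 149.5, 175 and 204 to 20.1, 25.5 and 23.7 CPM (-2.92 ± 0.38), and TNFSF10, the death ligand TRAIL, by 2.60 ± 0.38. All 3 Plasmax libraries of these genes lay below all 3 EMEM libraries. CX3CL1 fell by 1.47 ± 0.18, the interleukin-1 blocker IL1RN by 1.39 ± 0.20, and PGF, of the VEGF family, by 1.67 ± 0.32. ANGPTL4, an inhibitor of lipoprotein lipase, fell by 2.21 ± 0.46, DLK1, a Notch-related ligand of liver progenitors, by 1.25 ± 0.14, and follistatin, FST, by 0.91 ± 0.21. Of the 12 interleukins, chemokines and TNF ligands tested, 3 rose and 4 fell.

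In signalling genes 17 rose and 18 fell of 126. Without EMEM replicate 3 the counts were 9 and 12, without Plasmax replicate 2 they were 9 and 14, without Plasmax replicate 1 they were 11 and 17, and without EMEM replicate 1 they were 11 and 13. RAB3B (ENSG00000169213), a GTPase of secretory vesicles, had 16.1, 17.9 and 13.7 CPM in EMEM and 95.3, 109.7 and 106 CPM in Plasmax, a change of 2.7 ± 0.18 (adjusted p = 4.0e-09). RAB17, a GTPase of polarized epithelial transport, went from 351, 389.7 and 402 to 52.05, 75.6 and 82.9 CPM (-2.43 ± 0.20, adjusted p = 5.8e-08). These GTPases moved in opposite directions, each without overlap. DUSP5, a nuclear phosphatase that ERK induces and that inactivates ERK, rose by 2.62 ± 0.38, from 8.72 ± 3.66 CPM (EMEM) to 55.1 ± 15.3 CPM (Plasmax), and DUSP9 fell by 1.10 ± 0.15. SOCS3, a feedback inhibitor of STAT3 signalling, rose by 1.73 ± 0.41. Regulators of small GTPases moved both ways, with ARHGAP5 at 1.34 ± 0.17 and ARHGEF40 and ARHGAP45 at -1.79 ± 0.21 and -2.19 ± 0.44.

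Of 20 tested targets and feedback genes of the ERK pathway 6 rose and 0 fell, with a median of 0.02 over the list, and 5 rose with any 1 library left out. Beside DUSP5 and FOSL1 these were CCND1, for cyclin D1 (0.79 ± 0.17), PHLDA1 (0.63 ± 0.14), EMP1 and DUSP4. DUSP4 went from 3.38 ± 0.439 CPM (EMEM) to 8.77 ± 1.15 CPM (Plasmax) and lost its call without any 1 of the 6 libraries (adjusted p 0.053 to 0.12). EMP1, an epithelial membrane protein, had 5 counts over the EMEM libraries and 200 over the Plasmax libraries, a ratio of 42.0 (95% interval 17.7 to 131.0). Of 4 EGF family ligands tested AREG and EREG rose, while TGFA and HBEGF had log2 fold changes of 0.37 ± 0.26 and -0.17 ± 0.36 and were not called.

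Solute carriers, the main class of membrane transporters, had 10 members higher and 33 lower of 161 tested, with a median log2 fold change of -0.24. In the family of phosphate and citrate carriers 3 fell and 1 rose of 7. SLC13A3 (ENSG00000158296), a sodium-coupled dicarboxylate carrier, had 169, 158 and 161 CPM in EMEM and 50.2, 42.1 and 43.8 CPM in Plasmax, a change of -1.85 ± 0.16 (adjusted p = 1.1e-07). SLC13A5, the citrate carrier of the hepatocyte surface, went from 167, 128 and 121 to 65.8, 37.1 and 64.2 CPM (-1.31 ± 0.19), and SLC25A1, which moves citrate out of mitochondria, fell by 1.03 ± 0.23. The Plasmax libraries of both surface carriers lay below every EMEM library. SLC25A42, a mitochondrial coenzyme A carrier, fell by 1.64 ± 0.27. Of 33 mitochondrial carriers 5 fell and 0 rose (2 fell without EMEM replicate 3, 3 without Plasmax replicate 2). That is 15.2% called, fewer than the 21.4% of all genes.

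Sugar transporters had 3 lower and 0 higher of 10 (median -0.52). SLC2A9, a urate and sugar carrier, went from 13.5, 17.5 and 14.2 to 4.39, 3.50 and 2.79 CPM (-2.09 ± 0.34, adjusted p = 0.00017), and SLC2A4, the insulin-responsive transporter GLUT4, fell by 1.73 ± 0.38. Of the zinc transporters SLC39A14, which also carries iron and manganese, fell from 694, 689 and 909.8 to 373, 334 and 290.0 CPM (-1.20 ± 0.18, adjusted p = 8.0e-05). SLC39A5 and SLC39A13 fell by 1.32 ± 0.26 and 0.97 ± 0.18. The zinc and related metal carriers had 4 lower and 1 higher of 17.

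Amino acid carriers of the plasma membrane moved both ways, 5 higher and 6 lower of 25 (median 0.04). SLC38A4, a hepatocyte carrier of neutral amino acids, had 16.7, 8.52 and 7.09 CPM in EMEM and 0.627, 1.502 and 1.86 CPM in Plasmax (-2.86 ± 0.70, adjusted p = 0.0061). SLC1A2, a glutamate transporter, fell from 75.7, 62.2 and 73.7 to 27.0, 21.5 and 16.8 CPM (-1.71 ± 0.22) and SLC6A8, the creatine transporter, from 54.5, 69.8 and 42.5 to 21.3, 13.5 and 16.3 CPM (-1.72 ± 0.22). For these 3 genes no library of one medium reached into the range of the other. SLC16A10, which carries aromatic amino acids, fell by 1.46 ± 0.25, SLC38A3, a glutamine transporter, by 1.17 ± 0.26, and SLC43A1 by 0.85 ± 0.19. SLC38A5 rose by 0.79 ± 0.19. The cystine carrier SLC7A11 rose from 243 ± 132 CPM (EMEM) to 585 ± 80.8 CPM (Plasmax), with EMEM replicate 2 the lowest library (298, 92.4 and 338 CPM in EMEM), and lost the call without that library (adjusted p = 0.054) or without Plasmax replicate 1 (adjusted p = 0.051), and with DESeq2 (adjusted p = 0.058). The glutamine carrier SLC1A5 rose by 0.67 ± 0.18 and lost the call without EMEM replicate 2 (adjusted p = 0.069). Those called higher were 3 without EMEM replicate 1, without EMEM replicate 2 or without Plasmax replicate 2, and 2 without Plasmax replicate 1. SLC7A5, a leucine carrier, had 498 ± 82.2 CPM on average in EMEM and 513 ± 64.1 CPM in Plasmax and was not called.

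**Figure D4:**
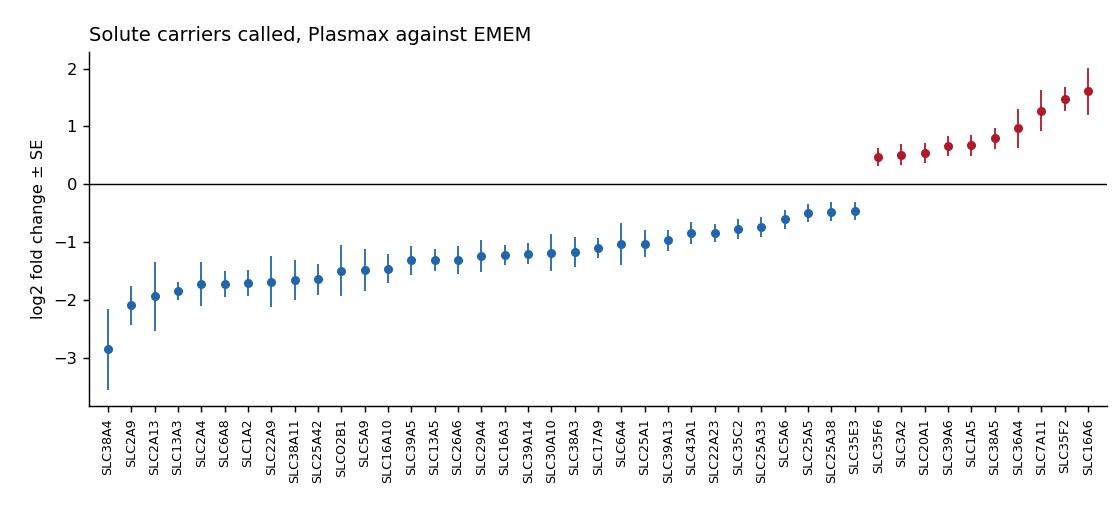
Log2 fold change ± SE between Plasmax and EMEM for the 43 solute carriers called, in order of size, with the 33 lower in blue and the 10 higher in red. SLC38A4 lies lowest and SLC16A6 highest.

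Other transporters included rises and falls. Of 24 ABC transporters 3 rose and 5 fell (2 fell without EMEM replicate 1, EMEM replicate 3 or Plasmax replicate 2, and 8 with a block on runs of library numbers). ABCC3, a hepatic exporter of conjugates, went from 28.2, 32.8 and 35.9 to 73.4, 85.1 and 76.8 CPM (1.27 ± 0.18, adjusted p = 5.1e-05), and ABCB1, the drug exporter P-glycoprotein, rose by 0.82 ± 0.17. ABCB4, the phospholipid exporter of the bile canaliculus, fell by 1.01 ± 0.20 and ABCA2 by 1.72 ± 0.36. GJB1, for connexin 32 of hepatocyte gap junctions, fell from 325, 272 and 282 to 127, 103 and 125 CPM (-1.31 ± 0.20), and the store-operated calcium channel subunits ORAI1 and ORAI3 fell by 1.38 ± 0.26 and 0.92 ± 0.21. GJB1, ORAI1 and ORAI3 were called whichever library was left out. AQP7, the glycerol channel, had 38 counts in EMEM and 6 in Plasmax, a ratio of 6.04 in favour of EMEM (95% interval 2.53 to 17.5).

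Of the 157 enzymes 53 fell, 8 rose and 96 were not called. Cytochromes P450 had 8 lower and 1 higher of 14 (median -1.03), and 8 or 9 were lower whichever library was left out. CYP27A1, a bile acid and vitamin D enzyme of mitochondria, went from 307, 262 and 299 to 156, 156 and 181 CPM (-0.81 ± 0.14, adjusted p = 0.00025). CYP4F12 fell by 1.54 ± 0.24. CYP8B1, which sets the ratio of bile acids, had 61 counts over the EMEM and 8 over the Plasmax libraries, a ratio of 7.27 in favour of EMEM (95% interval 3.46 to 17.6). CYP3A5 and CYP3A7, drug-metabolizing enzymes of related sequence that may share some reads, had log2 fold changes of -2.24 ± 0.46 and -2.92 ± 0.59. The aromatase CYP19A1 fell by 2.27 ± 0.47.

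Aldehyde and alcohol dehydrogenases had 8 lower and 0 higher of 16 (median -0.53), and 5 lower without EMEM replicate 2 or EMEM replicate 3. ALDH6A1, of valine breakdown, had 130.3, 87.3 and 113 CPM in EMEM and 40.8, 33.0 and 25.1 CPM in Plasmax, a change of -1.75 ± 0.20 (adjusted p = 4.3e-06). ALDH1L1, a folate enzyme, fell by 2.36 ± 0.36 and ADH5, which clears formaldehyde, by 1.07 ± 0.13. Of the hydroxysteroid and short-chain dehydrogenases 8 fell and 1 rose of 18 (5 fell without Plasmax replicate 2). HSD17B2, which inactivates sex steroids, went from 80.9, 96.7 and 92.6 to 29.5, 31.6 and 23.7 CPM (-1.68 ± 0.18), and HSD11B2, which inactivates cortisol, fell by 1.84 ± 0.26. Every Plasmax library of HSD17B2 was lower than every EMEM library. The aldo-keto reductases AKR1C1 and AKR1C3, close copies whose reads may be shared, fell by 1.36 ± 0.28 and 1.00 ± 0.19, and AKR1D1, of bile acid synthesis, by 1.65 ± 0.38.

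Among other enzymes, acyl-CoA synthetases differed by member. ACSL5 rose from 131, 86.04 and 96.8 to 275, 257 and 248 CPM (1.32 ± 0.17, adjusted p = 1.9e-05), and ACSL1 and the mitochondrial ACSS1 by 0.94 ± 0.21 and 0.96 ± 0.20. ACSS2, which makes acetyl-CoA from acetate in the cytosol, fell by 1.31 ± 0.23 and the thioesterase ACOT2 by 1.47 ± 0.20. CA9, a carbonic anhydrase that hypoxia induces, had 64 counts in EMEM and 3 in Plasmax, a ratio of 20.3 in favour of EMEM (95% interval 6.65 to 101.0). The sialyltransferase ST3GAL1 fell from 139, 118 and 154 to 57.1, 39.1 and 38.2 CPM (-1.62 ± 0.18), and the mucin-type glycosyltransferase GALNT10 rose by 1.36 ± 0.22. In one-carbon metabolism MTHFD1L rose by 1.09 ± 0.18, while SARDH fell by 1.85 ± 0.26.

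Proteases and their inhibitors were called in 51.0% of 51 cases. TIMP1 (ENSG00000102265), an inhibitor of matrix metalloproteases, had 23.1, 29.8 and 18.9 CPM in EMEM and 127, 199.8 and 199.7 CPM in Plasmax, a change of 2.87 ± 0.24 (adjusted p = 1.1e-07). SERPINE2, for the thrombin inhibitor protease nexin-1, went from 93.1, 105 and 60.9 to 578, 595 and 532 CPM (2.72 ± 0.20, adjusted p = 1.5e-08). Both stood several times higher in each Plasmax library than in any EMEM library. SERPINA3, the acute phase antichymotrypsin, rose from 1.93, 2.13 and 2.36 to 19.4, 27.0 and 22.8 CPM (3.39 ± 0.39), and the epithelial protease PRSS8 by 2.32 ± 0.39. MMP3, stromelysin-1, had 2 counts over the EMEM and 78 over the Plasmax libraries, a ratio of 40.9 (95% interval 11 to 344.0).

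Serpins had 5 higher and 8 lower of 16. The number higher was 3 without any 1 EMEM library and without Plasmax replicate 1 or 3. The serpins that fell included carriers and inhibitors made by the liver, SERPINA4 (-1.76 ± 0.39), SERPINA11 (-1.14 ± 0.24), the thyroxine carrier SERPINA7 (-1.13 ± 0.21) and the thrombin inhibitor SERPIND1 (-1.06 ± 0.15). The clotting factor F7 fell by 1.20 ± 0.23 and the membrane protease hepsin, HPN, by 1.08 ± 0.17, from 225 ± 22.9 CPM (EMEM) to 107 ± 21.4 CPM (Plasmax).

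Among structure genes, of which 24 rose, 5 fell and 78 were not called, all 4 keratins tested were higher (median 0.95). KRT19 (ENSG00000171345), a keratin of bile duct cells, had 116, 148 and 111 CPM in EMEM and 473, 712 and 625 CPM in Plasmax, a change of 2.27 ± 0.27 (adjusted p = 6.0e-06). KRT18 went from 504, 505 and 543 to 956, 1164 and 1259 CPM (1.12 ± 0.20), and KRT10 rose by 0.77 ± 0.16. KRT8, the partner of KRT18, rose by 0.59 ± 0.19, but 5 of the 6 libraries could not be left out without losing its call (adjusted p 0.073 to 0.11).

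Tubulins had 6 higher and 2 lower of 10 (median 0.85). Without Plasmax replicate 3 the counts were 5 and 2, and the median was 0.47. TUBB2B, a tubulin of developing tissue, had 41.1, 47.7 and 37.3 CPM in EMEM and 216, 238 and 216 CPM in Plasmax, a change of 2.4 ± 0.27 (adjusted p = 2.7e-06). TUBB6 went from 26.3, 41.7 and 30.7 to 79.6, 95.1 and 102 CPM (1.47 ± 0.19), and TUBA1C from 397, 504 and 476 to 916, 971 and 1231 CPM (1.18 ± 0.19). The Plasmax libraries of all 3 lay above the EMEM libraries. TUBA1A, TUBA1B and TUBA1C are close copies, so reads may be split among them. TUBB2A and TUBG2 fell by 0.59 ± 0.18 and 0.79 ± 0.25, and TUBB2A lost its call without EMEM replicate 2 or Plasmax replicate 1 (adjusted p 0.087 and 0.11). TUBG2 lost it without any 1 library other than EMEM replicate 3 (adjusted p 0.051 to 0.11), and with DESeq2 (adjusted p = 0.068).

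Of actins, myosins and tropomyosins 6 of 33 rose and 0 fell (median 0.26). That is 18.2% called, fewer than the 21.4% of all genes, of which 9.9% were called higher. With 1 library left out 4 to 7 rose, and 10 rose with a block on runs of library numbers. ACTA1, skeletal muscle actin, rose from 3.21, 2.56 and 8.50 to 34.5, 13.5 and 40.0 CPM (2.59 ± 0.46, adjusted p = 0.00044). The non-muscle myosin heavy chain MYH9 rose by 0.74 ± 0.16 and TPM4 by 0.76 ± 0.19. S100A11 and S100P, calcium-binding proteins, rose by 1.94 ± 0.31 and 0.95 ± 0.18, whereas ANXA6, an annexin, fell by 1.35 ± 0.16. LAMB3, a laminin chain of epithelial basement membrane, had 0 counts in every EMEM library and 45 over the Plasmax libraries, at least 15.7-fold higher when set against 3 counts over the EMEM group. CLDN4, a tight junction claudin, rose by 0.94 ± 0.20 and was the 1 of 13 claudins and cadherins called.

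**Figure D5:**
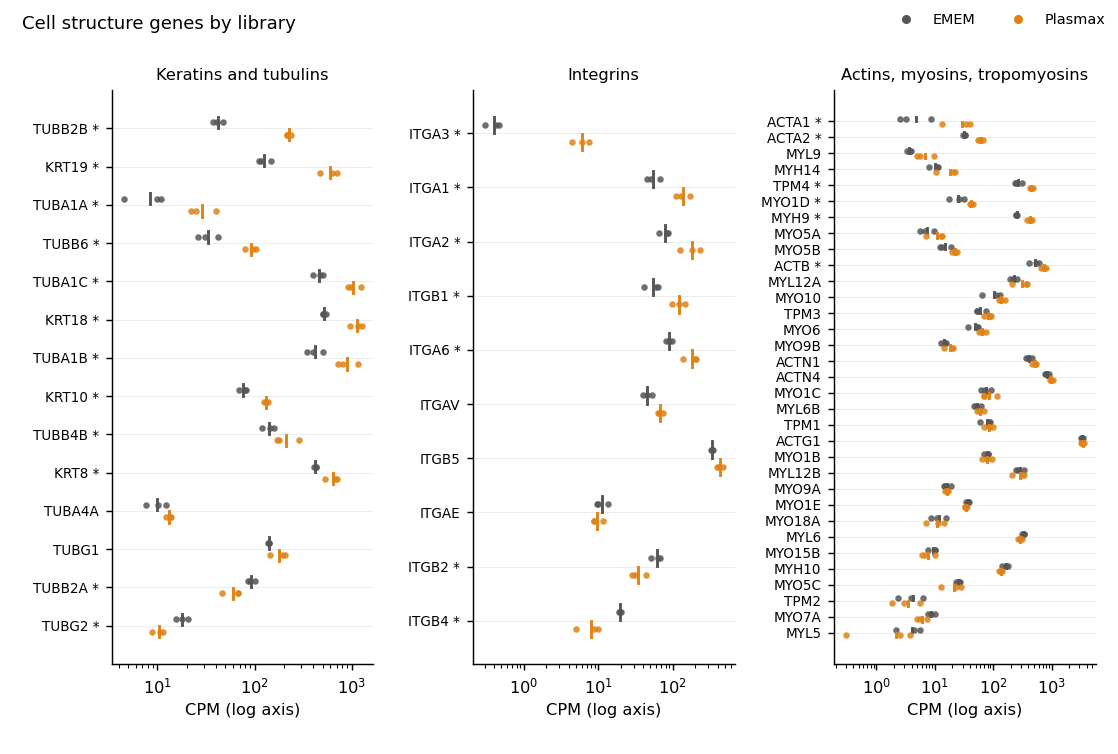
CPM of each library (points, log axis) and the mean of each medium (short bars) for the tested keratins and tubulins, integrins, and actins, myosins and tropomyosins, EMEM in grey and Plasmax in orange, with called genes starred and libraries at 0 drawn at 0.3 CPM. Most starred genes lie higher in Plasmax; TUBB2A, TUBG2, ITGB2 and ITGB4 lie lower.

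Matrix genes differed by the set counted. Collagens and laminins had 2 higher and 0 lower of 13, 15.4% called beside the 21.4% of all genes. With 1 library left out, 1 or 2 of them were higher and 0 or 1 lower. Of 22 genes of the extracellular matrix and adhesion list 4 rose, LAMB3 among them, and 8 fell (2 rose without EMEM replicate 1 or without Plasmax replicate 2). TGFBI, a TGF-beta-induced matrix protein, fell from 564, 554 and 587 to 181, 215 and 225 CPM (-1.46 ± 0.15, adjusted p = 1.4e-06), ITIH3, which crosslinks hyaluronan, by 1.56 ± 0.22, and the proteoglycan GPC3, a marker of liver cancer, by 0.84 ± 0.13. Enzymes that hydroxylate collagen or fold proteins in the endoplasmic reticulum had 7 lower and 0 higher of 13 (4 lower without Plasmax replicate 1 or Plasmax replicate 2), with PLOD2 at -1.31 ± 0.23 and PDIA5 at -1.14 ± 0.27.

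Histones had 7 higher and 2 lower of 17 (median 0.65). The replacement histone H3-3B rose from 740.0, 705 and 684 to 1212, 1243 and 1222 CPM (0.79 ± 0.12, adjusted p = 9.9e-05), and the replication-linked H2AC6 and H2BC21 by 2.16 ± 0.31 and 1.75 ± 0.35. H4C3 fell from 378, 402 and 209.7 to 134, 107 and 80.1 CPM (-1.63 ± 0.24). Replication-linked histone transcripts mostly lack the poly(A) tail on which 3′ libraries are primed, and many are close copies, so their counts are uncertain. The deacetylases HDAC5 and HDAC11 fell by 1.52 ± 0.17 and 1.36 ± 0.22.

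Gene lists of known regulators were counted beside the 21.4% called over all genes. PPAR-alpha targets had 8 lower and 2 higher of 17 (median -0.64). Among them FABP1, the fatty acid carrier of liver, fell by 2.03 ± 0.16. ACSL1 stood on the higher side. Targets of the glucocorticoid receptor had 7 lower and 2 higher of 14 (median -0.56). SGK1, a kinase of ion transport, fell from 84.1, 106 and 114 to 18.2, 17.5 and 9.78 CPM (-2.76 ± 0.24, adjusted p = 1.8e-07), while MT2A, one of several closely alike metallothioneins that metals also induce, rose from 1442, 1920 and 1761 to 4606, 5772 and 5020 CPM (1.59 ± 0.24). Genes that insulin represses through FOXO had 6 lower and 3 higher of 20 (median -0.44). A 2-fold change was reached by all 3 that were higher, TXNIP among them, and by 5 of the 6 lower. G6PC, the last enzyme of glucose production, fell from 65.5, 49.4 and 50.1 to 13.8, 4.51 and 1.40 CPM (-3.16 ± 0.36, adjusted p = 3.2e-06), beside IGFBP1 and KLF15.

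Wnt targets had 2 higher and 3 lower of 15 (median -0.12), with RNF43, a feedback inhibitor, at 1.15 ± 0.19 and GLUL, the glutamine synthetase of pericentral hepatocytes, at -0.96 ± 0.14. Retinoic acid targets had 3 higher and 2 lower of 7 (0 to 2 lower with 1 library left out), and GPRC5A and TGM2 (2.08 ± 0.24) were among the 3. TGF-beta targets had 1 higher and 2 lower of 16, the 1 being the cell cycle inhibitor CDKN2B (3.59 ± 0.56). In the lysosomal arm that signals nutrients to mTORC1, FLCN and FNIP2, partners in 1 complex, fell by 1.14 ± 0.21 and 1.59 ± 0.16, for 1 higher and 2 lower of 22. The 1 higher, the GTPase RHEB (0.68 ± 0.21), lost its call without any 1 library other than EMEM replicate 3 (adjusted p 0.051 to 0.11).

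In the core machinery of protein turnover, proteasome subunits had 8 higher and 0 lower of 32 (median 0.39), with PSMD14 and PSMD11 at 0.99 ± 0.25 and 0.81 ± 0.16. The number higher was 3 without EMEM replicate 1 and 5 without EMEM replicate 3 or any 1 Plasmax library. Cytosolic tRNA synthetases had 5 higher and 1 lower of 19 (3 higher without EMEM replicate 2, EMEM replicate 3, Plasmax replicate 1 or Plasmax replicate 3, and 0 lower whichever library was left out). With a block on runs of library numbers 16 proteasome genes were higher and 1 lower, and 8 synthetases higher and 1 lower. Among the synthetases, WARS1 rose from 37.9, 33.2 and 49.6 to 102, 93.1 and 101 CPM (1.29 ± 0.24, adjusted p = 0.00071).

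Markers of hepatocytes and of other cell types were read in all 6 libraries. All 17 hepatocyte markers had counts, and 11 fell and 2 rose. Of 12 biliary and progenitor markers 7 were in the table (KRT7 and MMP7 were among those that were not) and KRT19, SPP1 and EPCAM rose. The 7 markers' summed share of counts was 0.0617%, 0.0723% and 0.0604% in EMEM and 0.145%, 0.175% and 0.139% in Plasmax (exact permutation p = 0.1). SOX9, a biliary factor, had 277, 276 and 248 CPM in EMEM and 416, 346 and 272 CPM in Plasmax and was not called (0.37 ± 0.17, adjusted p = 0.13). Of 12 stromal markers 3 were in the table, with a summed level of 50.7 to 60.9 CPM in EMEM and 59.6 to 78.6 CPM in Plasmax. Among them ACTA2 rose by 0.93 ± 0.20, PDGFRB fell, and COL1A1 had at most 8.01 CPM in any of the 6 libraries. None of 10 endothelial markers was in the table. No gene in the table had under 4.04 CPM in its third-highest library, so markers outside it may have had low counts. Of 12 blood cell markers 3 were in the table, without PTPRC, the common leukocyte marker. CD14 and CD68 had at most 5.13 and 5.96 CPM. LYZ, for lysozyme, fell from 2173, 2534 and 2473 to 1649, 1517 and 1269 CPM and made up nearly all of that list's counts, but lost its call without any 1 of the 6 libraries (adjusted p 0.061 to 0.14). The part of these markers in the other results was not tested.

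For some of these genes Plasmax was also set against Plasmax-TE, the same medium without trace elements. That comparison shares the Plasmax libraries with the one above, so values are given side by side. The genes shown were chosen with their Plasmax and EMEM values known. Such a choice favours values in Plasmax-TE that lie back toward EMEM, and the adjusted p do not account for it. Replicate 1 of Plasmax-TE stands apart from the others of that medium. In it 11.2% of genes were called. KRT19 stood at 129 ± 34.8 CPM in Plasmax-TE, a log2 fold change of -2.23 ± 0.27 from Plasmax (adjusted p = 3.9e-05). SERPINE2 stood at 158 ± 22.6 CPM (-1.84 ± 0.19, adjusted p = 5.6e-06) and SOX4 at 143 ± 26.2 CPM (-1.37 ± 0.18, adjusted p = 5.9e-05). For KRT19 the mean without trace elements was close to the EMEM mean of 125 CPM. NR1H4 stood at 51.8 ± 12.02 CPM (1.32 ± 0.21, adjusted p = 0.00056) and CEBPA at 162 ± 48.5 CPM (1.56 ± 0.32, adjusted p = 0.0041), both higher than in Plasmax. Other genes were not called in that comparison. RORA stood at 9.75 ± 3.79 CPM (-0.04 ± 0.37, adjusted p = 0.96), PDGFRB at 3.37 ± 2.73 CPM (0.56 ± 0.58, adjusted p = 0.58) and ABCB1 at 124 ± 18.5 CPM (-0.42 ± 0.16, adjusted p = 0.1).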

How the data were processed

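RNA of HepG2 cells in 4 media, 3 libraries each, was counted by 3′ end sequencing (QuantSeq). The authors deposited whole-number counts per gene. Per the submitters' processing notes STAR 2.7.5b, featureCounts 1.6.3, FastQC 0.72, limma 3.40.6 and cutadapt 1.16 were used, with hg19 as the build and no roles given. The gene annotation and the strand setting are not given in the sources used here, so antisense and overlapping genes are uncertain. Of 10994 entries in the deposited table, 54 repeats with identical counts were dropped, leaving 10940 genes, and 255 genes without a symbol were named from the RefSeq gene table by identifier. The lowest third-highest CPM of any of these genes over the 12 libraries was 4.04, so weaker genes are missing from the table. The filter behind this is not stated.

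Counts were fitted in R 4.3.3 with edgeR 4.0.16 (filterByExpr with a minimum count of 10, trimmed mean scaling, quasi-likelihood test, prior count of 2) over all 4 media, which share 1 estimate of the spread, with medium as the only term and p-values adjusted over 10459 genes. Alternatives used DESeq2 1.42.0, limma 3.58.1, other scalings, filters, blocks and libraries left out. Shares of counts were compared by exact permutation tests. The main edgeR test, and no other step, was also run on simulated counts. These had a common spread for all genes and fewer changed genes than were called here. Intervals of ratios and folds against a floor of 3 counts cover counting error only.

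The gene families (106) and lists (25) were chosen with earlier results of these data known, and family patterns were corrected after seeing which symbols they matched. Named genes were, per class, the 6 (8 for transcription factors, and for transporters and channels) most changed each way among called genes of at least 5 CPM without overlap, up to 4 called members with the lowest p per family or list, the 15 most abundant genes, and the members of the nuclear receptor, liver factor and marker lists. H2BC21, ITGA2, ITGAV, ITGB2, ITGB4, ITGB5, HBEGF, TGFA and SLC7A5 fall outside that rule and were chosen after their values were seen. A few members of the lists are counted but not reported by name here.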

Additional observations from a re-analysis of the deposited data

How the results depend on the processing

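The number of genes called was 2226 with DESeq2's size factors in edgeR, 2259 with library size alone, 2021 with DESeq2 and 2207 with limma-voom, against 2233. With library size alone 54.8% of calls were higher, against 46.4%. With 1 library left out 1489 to 1996 genes were called, 631 (without EMEM replicate 3) to 898 higher and 764 (without Plasmax replicate 2) to 1098 lower, and 69 (without Plasmax replicate 2) to 104 transcription factors against 108. The label's replicate number as a block gave 2079 calls and ended those of DUSP4, LYZ and NR4A1 (adjusted p 0.054 to 0.066) among the genes described. Whether that number pairs the media is not stated in the labels. Deviations of EMEM and Plasmax libraries with the same number correlated weakly, at 0.098, 0.088 and 0.065. Each library correlated best with its own number, and the other pairs lay between -0.1 and 0.016. In these 2 media libraries with the same replicate number also share a run of library numbers. A block on runs of library numbers gave 2907 calls, the 6 libraries alone 2553, and these with a replicate block 2884. Without replicate 2 of Plasmax-TE+Fe and replicate 1 of Plasmax-TE, which stand apart (chosen after seeing the data), 2998 genes were called. Of 410 called named genes 300 were called in every fit with 1 library left out and 110 lost the call in at least 1. Over all alternatives 461 of 7329 gene values were no longer called and 0 changed sign. Shares without mitochondrial transcripts were not run, since the table lists none. At 1562125 to 2384090 counts a library, changes under 2-fold of genes under 5 CPM were not called.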

Other observations

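Counts of some further families are given beside the 21.4% of all genes called between Plasmax and EMEM, without an explanation. Kinesins, motors that move along microtubules, had 1 member higher and 7 lower of 28 tested, 28.6% called (4 lower without EMEM replicate 2 or EMEM replicate 3) at a Benjamini-Hochberg adjusted p under 0.05 in edgeR's quasi-likelihood test. KIF5B, a heavy chain of conventional kinesin, had 467, 469 and 542 CPM in EMEM and 319, 295 and 309.6 CPM in Plasmax (-0.68 ± 0.13, adjusted p = 0.001), and KIF13B fell by 1.05 ± 0.23. Genes of the circadian clock had 5 lower and 0 higher of 15, 33.3% called (3 lower without EMEM replicate 1, Plasmax replicate 1 or Plasmax replicate 3), RORA and HLF among them. Of Notch ligands, semaphorins, netrins and slits 1 rose and 5 fell of 16, 37.5% called (3 fell without EMEM replicate 1, EMEM replicate 3 or Plasmax replicate 2), with SEMA4G at -1.12 ± 0.23 and SEMA6C at -1.98 ± 0.42. FGF, VEGF, PDGF, HGF and midkine ligands had 1 higher and 5 lower of 13, 46.2% called (3 lower without EMEM replicate 1). In the D-type cyclins, which carry growth signals into the cell cycle, CCND3 rose from 3.21, 8.95 and 6.14 to 16.3, 16.5 and 14.9 CPM (1.31 ± 0.33, adjusted p = 0.0075).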
